A study of Mus musculus with 16 samples.

Results

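The genes described are 10 splicing regulators, Tra2a, Tra2b, Srsf1, Srsf2, Srsf3, Srsf5, Srsf6, Srsf7, Srsf10 and Srsf11, found by symbol among 18480 entries of RNA-seq tables from MC38 tumours. All 10 were present once and all 10 were among the 11868 entries that reached 1 FPKM in at least 4 libraries and were tested. MC38 is a mouse colon carcinoma line, grafted here under the skin. The 16 libraries fall into tumours from exercise with anti-PD-L1 (called combination here), anti-PD-L1, exercise and control, with 4 libraries each. Every group carries the same MC38 graft. The labels give no form of exercise, antibody dose or mouse strain, sex or age, and do not tie libraries to animals. The p-values therefore measure only the spread between these libraries, which may be technical.

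The members were not chosen blind. Tra2a was selected on its FPKM in exercise and control libraries, being lower with exercise, so the contrast of exercise with control is given below as a description without a test for every member. The contrast of combination with anti-PD-L1 uses none of those libraries. The other contrasts share either the control or the exercise libraries with it.

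SR proteins carry RNA recognition motifs that bind short sequences in exons and a tail rich in arginine and serine through which they recruit the splicing machinery. SRPK kinases in the cytoplasm and CLK kinases in the nucleus phosphorylate that tail and so set where the proteins sit and how they act. Many SR genes limit their own output by splicing in a poison exon or keeping an intron, which sends the transcript to nonsense-mediated decay. Tra2a and Tra2b are the mammalian forms of fly transformer 2, bind GA-rich exonic enhancers and have an arginine and serine rich tail at each end.

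Transcripts of these kinds are annotated for nearly all of the members. In GENCODE M21 (GRCm38), 9 of the 10 members have at least 1 transcript marked as a target of nonsense-mediated decay, against 29.2% of 11697 tested genes matched by symbol. An annotated retained-intron transcript is present in 9 of 10 members, against 59.8% of the tested genes. Srsf10 has neither, and Srsf11 has the most, with 3 decay and 11 retained-intron transcripts of 19. The deposited values give 1 number per gene and sum over these forms, so a change in poison exon use could not be seen.

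The promoter windows of the members were GC-rich. In the RefSeq table for GRCm38.p6 all 10 members matched, and their windows of 250 bases before to 50 bases after the start held 56% to 71.3% G and C, against a median of 52.7% over 32851 windows. The 10 members had 11 windows, since Srsf11 has 2. The 32851 windows were not restricted to the tested genes, so these shares do not compare the members with genes of like expression. The letters TGACGTC, the core of the cyclic AMP response element, were searched on both strands, where the full palindrome matches on each strand and the matches overlap. They were found in 3.21% of all windows and in those of Tra2a, Tra2b and Srsf6. The windows of these genes are shown because they hold that motif in both Tra2 genes, with its letters in capitals, 5′ to 3′ on the strand of the gene. They lie at chr6:49264003-49264302 (minus strand), chr16:22265956-22266255 (minus strand) and chr2:162931258-162931557 (plus strand).
Tra2a: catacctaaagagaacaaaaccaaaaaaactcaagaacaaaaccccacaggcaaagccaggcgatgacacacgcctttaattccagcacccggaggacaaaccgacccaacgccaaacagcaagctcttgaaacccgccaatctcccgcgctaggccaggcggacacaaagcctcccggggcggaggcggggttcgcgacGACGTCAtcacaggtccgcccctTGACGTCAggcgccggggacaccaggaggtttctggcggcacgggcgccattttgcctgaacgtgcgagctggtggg
Tra2b: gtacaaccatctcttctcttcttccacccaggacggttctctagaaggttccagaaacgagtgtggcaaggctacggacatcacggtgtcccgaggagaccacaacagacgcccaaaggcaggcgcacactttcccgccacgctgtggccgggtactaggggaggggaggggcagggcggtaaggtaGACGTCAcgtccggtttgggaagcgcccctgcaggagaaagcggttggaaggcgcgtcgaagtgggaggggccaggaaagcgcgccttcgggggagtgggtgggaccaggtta
Srsf6: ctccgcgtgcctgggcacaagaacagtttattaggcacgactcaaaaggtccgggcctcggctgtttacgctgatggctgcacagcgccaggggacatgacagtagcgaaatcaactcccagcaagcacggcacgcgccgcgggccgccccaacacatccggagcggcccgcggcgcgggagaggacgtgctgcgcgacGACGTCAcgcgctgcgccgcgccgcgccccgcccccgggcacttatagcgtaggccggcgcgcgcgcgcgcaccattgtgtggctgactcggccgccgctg
The Tra2a window holds the motif at 2 places, 1 of them the full palindrome, and each of the other windows holds it at 1 place. Of the other motifs searched, GCCATNT, the core bound by YY1, was in Tra2a, Srsf2 and Srsf3 and in 15.1% of windows. The TATA box, TATAAA, was in Srsf2 and Srsf3 and in 13.6%. CCGGAAG, the core bound by ETS factors, was in Srsf5, Srsf7 and Srsf11 and in 8.86%. TTCCCGC, an E2F core, was in Tra2b, Srsf1 and Srsf10 and in 4.6%. The letters CGCATGC, from the NRF1 site, were in Srsf7 and Srsf11 and in 3.58%. CCCGCCC, the GC box, was in 6 members and 25.6% of windows, and CCAAT was in 5 members and 37.4%. A match is a description of these letters, and nothing in the expression data bears on binding.

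All values are FPKM, fragments scaled to transcript length and to the mapped fragments of the library, which allows levels to be compared between genes. Srsf2 (SC35, a protein of nuclear speckles) was the most abundant member at 181 ± 28.6 FPKM (SD over 16 libraries), followed by Srsf5 at 141 ± 16.8 and Srsf11 at 128 ± 12.2. Srsf6 averaged 87.6 FPKM, Srsf10 72.3, Tra2b 72.2, Srsf3 67.8, Srsf1 52.4 and Srsf7 51.3. Tra2a was the least abundant, at 39.3 ± 7.57 FPKM. Neighbours in that order were not all distinct. Srsf10 lay above Tra2b in 7 of 16 libraries, Srsf1 above Srsf7 in 9 and Srsf5 above Srsf11 in 12, whereas Srsf11 lay above Srsf6 and Srsf3 above Srsf1 in all 16. Even Tra2a was expressed above 82.4% of the tested genes. The 10 members together held between 0.139% and 0.216% of the summed FPKM of a library.

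FPKM sums ranged from 478672 to 529732 per library, the files hold no counts, and the depth is unknown. Controls 1 and 2 lay farthest from 0 on principal component 1, at -30.8 and -41.4, and it carried 30.1% of the variance. Of 5 epithelial genes, Epcam, Krt8 and Krt18 stayed at 0.17, 0.2 and 0.18 FPKM or less in every library, while Krt19 ranged from 0.04 to 4.87 and Cdh1 from 1.24 to 3.05 FPKM. B cell markers summed to 1.1 FPKM or less. In a bulk tumour, fewer cells of a type and less RNA per cell cannot be told apart.

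The Tra2 genes are described first. Tra2a (chromosome 6, 49243921 to 49264248, GRCm38.p6 per RefSeq) measured 37.8, 37.3, 45.4 and 36.4 FPKM in combination libraries 1 to 4. It measured 44.8, 44.8, 31.6 and 35.9 FPKM in anti-PD-L1, 36.2, 26.8, 29.2 and 30.0 in exercise and 47.6, 46.1, 51.8 and 46.5 in control libraries. Every one of the 12 libraries of the other groups lay below the lowest control, by as little as 45.4 against 46.1 FPKM, and the exercise libraries were lowest. Among the tested genes 0.185% had all 12 libraries below the lowest control, and since Tra2a was noted for the exercise part of this pattern, it is given as a description.

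Against control, exercise tumours had a Tra2a log2 difference of -0.64 with a standard error of 0.12, which is 0.64 times the control level. With single libraries left out it ran from -0.72, without exercise 1, the exercise library with the highest Tra2a, to -0.58. It was -0.67 without controls 1 and 2 and ranked 242 from the lowest of the 11868 tested genes in that contrast. Tra2a was chosen on this contrast, so a low rank was fixed by the choice and -0.64 may be inflated by it. Its distance from the next value is therefore only a description. In tumours that all received antibody, the difference with exercise was 0.01 ± 0.12 (log2 difference ± standard error, combination against anti-PD-L1), with a 95% interval from -0.24 to 0.26 and an adjusted p of 0.997 in limma. The libraries overlapped, with combination at 36.4 to 45.4 FPKM and anti-PD-L1 at 31.6 to 44.8. The sign of 0.01 depended on the scaling and was negative after quantile normalization and after centring of the libraries.

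**Figure D1:**
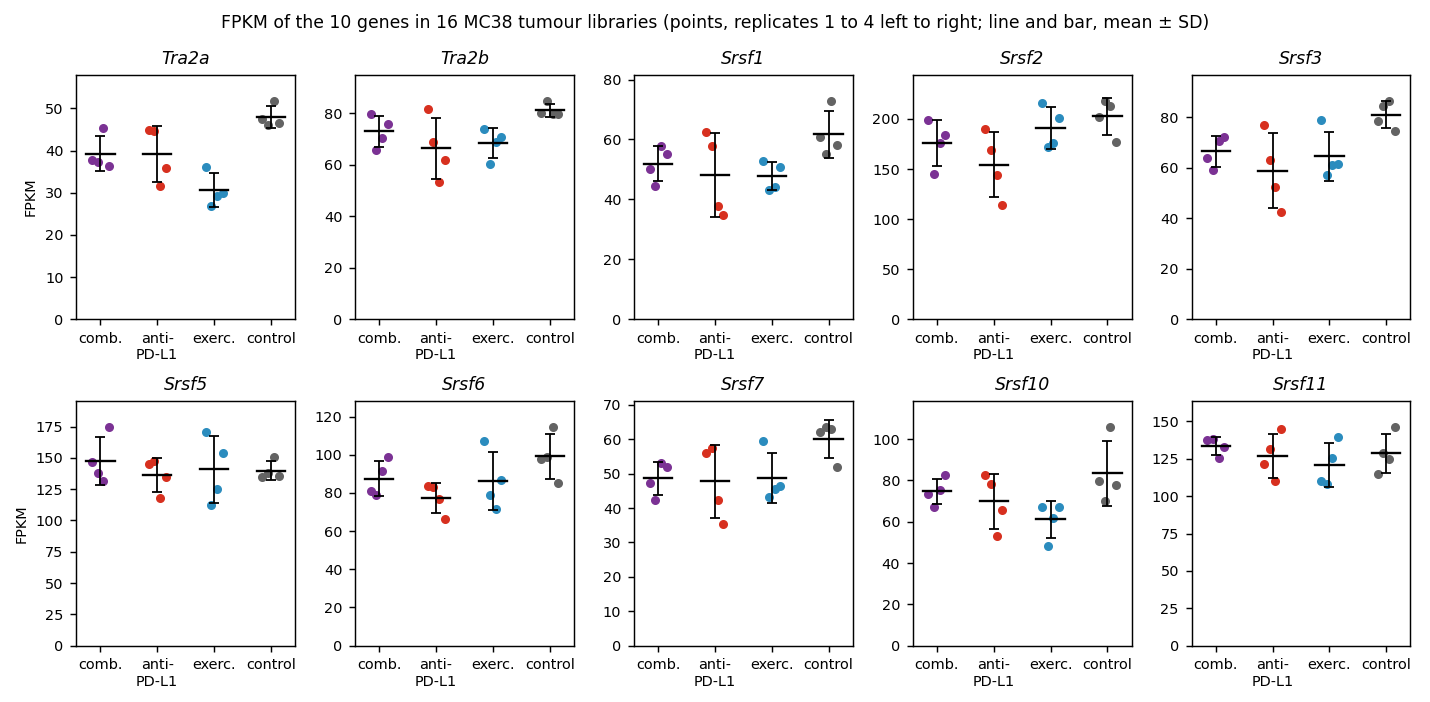
FPKM of each of the 10 genes (vertical axis, from 0) in the combination, anti-PD-L1, exercise and control groups, with points for libraries 1 to 4 and a line and bar for the mean and SD. Tra2a lies between 26.8 and 36.2 FPKM in exercise libraries and between 46.1 and 51.8 in control libraries, while Srsf5 and Srsf11 overlap in all groups.

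For the antibody, Tra2a averaged 39.3 ± 6.62 FPKM in anti-PD-L1 and 48.0 ± 2.63 in control tumours (SD, n = 4 each), a log2 difference of -0.30 ± 0.12 with a limma adjusted p of 0.155. With exercise, it averaged 39.2 ± 4.15 FPKM in combination and 30.6 ± 4.02 in exercise tumours, a log2 difference of 0.35 ± 0.12, higher in every combination library than in every exercise library. Its adjusted p in limma was 0.239, so it did not pass, and the exercise libraries are those in which Tra2a was noted as low. Combination against control gave -0.29 ± 0.12 with a limma adjusted p of 0.606. Tra2a was selected on the exercise and control libraries, so these comparisons are descriptions and nothing is read from their p-values.

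Tra2b (chromosome 16, 22244552 to 22266005) is the close paralogue of Tra2a and was more abundant in every library. A processed pseudogene, Tra2b-ps, is annotated, so reads could be split between the copies. It measured 79.6, 65.9, 70.5 and 75.8 FPKM in combination, 81.6, 68.7, 53.1 and 61.8 in anti-PD-L1, 73.9, 60.4, 68.6 and 70.7 in exercise and 80.0, 84.8, 79.8 and 79.6 in control libraries. All exercise and all combination libraries lay below the lowest control, the highest combination library by 79.58 against 79.59 FPKM, while anti-PD-L1 library 1 lay among the controls. The log2 difference was -0.25 ± 0.11 in exercise against control, given without a test. Anti-PD-L1 against control gave -0.30 ± 0.11, with a limma adjusted p of 0.129, close to the value of Tra2a, and combination against anti-PD-L1 gave 0.15 ± 0.11, with a limma adjusted p of 0.968. That value was 0.25 without anti-PD-L1 library 1 and 0.05 without anti-PD-L1 library 3.

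Because both genes sit in the same library, the log2 ratio of Tra2a to Tra2b, taken with 1 FPKM added to each, depends little on how libraries are scaled. It averaged -0.88 ± 0.20 in combination, -0.74 ± 0.10 in anti-PD-L1, -1.14 ± 0.09 in exercise and -0.75 ± 0.10 in control tumours (SD, n = 4 each). The exercise libraries, from -1.21 to -1.01, lay below all anti-PD-L1 and all control libraries. Combination libraries 1 and 4 lay at -1.05 and -1.04 and libraries 2 and 3 at -0.81 and -0.62. Combination minus anti-PD-L1 was -0.14, with p = 0.257 in a two-sided exact permutation test, which cannot go below 0.0286 with 4 libraries in each group. The other comparisons use the exercise or control libraries on which Tra2a was selected and are given without a test, at 0.26 for combination minus exercise, -0.13 for combination minus control and 0.01 for anti-PD-L1 minus control.

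**Figure D2:**
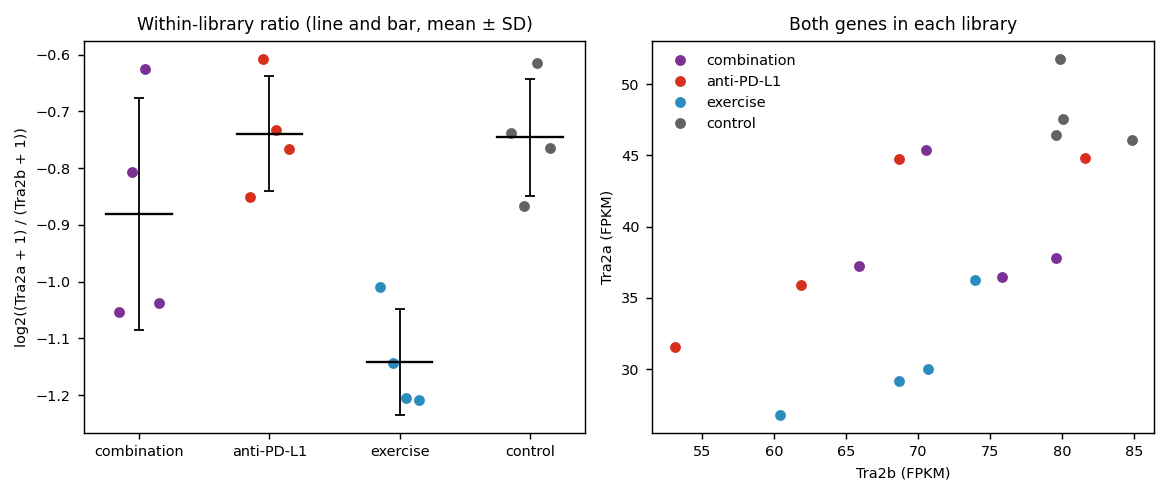
Left, the log2 ratio of Tra2a to Tra2b in each library (points) with the group mean and SD (line and bar); right, Tra2a against Tra2b in FPKM for the same libraries. The ratio lies between -1.21 and -1.01 in exercise libraries and between -0.87 and -0.61 in control libraries.

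Among the canonical SR proteins, Srsf3, the smallest of them and also an mRNA export adaptor (chromosome 17, 29032660 to 29043372), had the largest difference between anti-PD-L1 and control tumours of the 10 members. It measured 64.0, 59.0, 70.8 and 72.3 FPKM in combination, 77.1, 63.3, 52.7 and 42.7 in anti-PD-L1, 78.9, 57.2, 61.2 and 61.5 in exercise and 78.7, 84.4, 86.6 and 74.7 in control libraries. Every combination library lay below every control library, whereas anti-PD-L1 library 1 and exercise library 1 overlapped the controls. Anti-PD-L1 against control gave -0.49 ± 0.15, 0.71 times the control level, with a limma adjusted p of 0.0938. That was the lowest adjusted p of any member in any tested comparison. Combination against control gave -0.28 ± 0.15, and combination against anti-PD-L1 0.20 ± 0.15. The last of these was 0.34 without anti-PD-L1 library 1 and 0.06 without anti-PD-L1 library 4.

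Srsf1 (SF2/ASF, the founding member of the family and a known oncogene in other tumours) measured 50.3, 44.6, 57.7 and 55.1 FPKM in combination, 62.5, 57.9, 37.7 and 34.8 in anti-PD-L1, 52.8, 43.2, 44.2 and 50.9 in exercise and 60.8, 55.1, 72.9 and 58.2 in control libraries. All exercise libraries lay below all controls, and the anti-PD-L1 libraries formed a high and a low pair. The antisense gene Gm11508 overlaps exons of Srsf1. The log2 difference of Srsf1 was -0.39 ± 0.16 in anti-PD-L1 against control, with a limma adjusted p of 0.171. With single libraries left out it ran from -0.53 to -0.25, the latter without anti-PD-L1 library 4, with a limma adjusted p of 0.445.

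Srsf6, which binds exonic enhancers, was lower in every anti-PD-L1 library than in every control library. It measured 83.6, 82.9, 76.9 and 66.5 FPKM in anti-PD-L1 and 98.0, 98.6, 115 and 85.3 in control libraries, a log2 difference of -0.35 ± 0.12 with a limma adjusted p of 0.126. Its combination libraries ranged from 78.7 to 98.8 FPKM and its exercise libraries from 71.8 to 107.

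Srsf2 ranged from 145 to 199 FPKM in combination, from 114 to 190 in anti-PD-L1, from 172 to 216 in exercise and from 177 to 218 in control libraries. Anti-PD-L1 against control gave -0.41 ± 0.14 with a limma adjusted p of 0.118, and exercise against control -0.09 ± 0.14. Exons of Srsf2 overlap those of Mettl23 and Mfsd11 on the other strand, and whether the authors' counting used strand is not given in the sources used here, so reads of these genes may not be told apart. Srsf7, a close relative of Srsf3, ranged from 42.5 to 53.1 FPKM in combination, from 35.4 to 57.4 in anti-PD-L1, from 43.3 to 59.6 in exercise and from 52.0 to 63.6 in control libraries. Its log2 difference was -0.35 ± 0.14 in anti-PD-L1 against control, with a limma adjusted p of 0.164. With single libraries left out it ran from -0.44 to -0.22, the latter without anti-PD-L1 library 4.

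Srsf5 and Srsf11 had the smallest differences from control of the members with antibody alone, and their groups overlapped. Srsf5 measured 147, 138, 132 and 175 FPKM in combination, 145, 148, 118 and 135 in anti-PD-L1, 171, 112, 125 and 154 in exercise and 134, 138, 151 and 135 in control libraries. Its log2 difference was -0.04 ± 0.12 in anti-PD-L1 against control, with a 95% interval from -0.30 to 0.23, and -0.01 ± 0.12 in exercise against control. Srsf11 measured 137, 138, 126 and 133 FPKM in combination, 121, 132, 110 and 145 in anti-PD-L1, 110, 108, 126 and 140 in exercise and 115, 129, 125 and 146 in control libraries. Its log2 difference was -0.02 ± 0.10 in anti-PD-L1 against control, with a 95% interval from -0.24 to 0.20, and -0.09 ± 0.10 in exercise against control. The sign of both antibody values turned positive after quantile normalization or centring.

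Srsf10, a relative of the SR proteins that represses splicing in its dephosphorylated form, had the largest difference after Tra2a in exercise against control. It measured 73.6, 67.4, 75.3 and 82.6 FPKM in combination, 82.7, 78.4, 53.1 and 65.9 in anti-PD-L1, 67.3, 48.2, 62.0 and 67.2 in exercise and 79.9, 70.1, 106 and 77.9 in control libraries. All exercise libraries lay below all combination and all control libraries, the highest exercise library by 67.32 FPKM against 67.37 in the lowest combination library. The log2 difference was -0.44 ± 0.15 in exercise against control, given without a test, and 0.29 ± 0.15 in combination against exercise, with a limma adjusted p of 0.408. With single libraries left out the latter ran from 0.18, without exercise library 2, to 0.34.

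**Figure D3:**
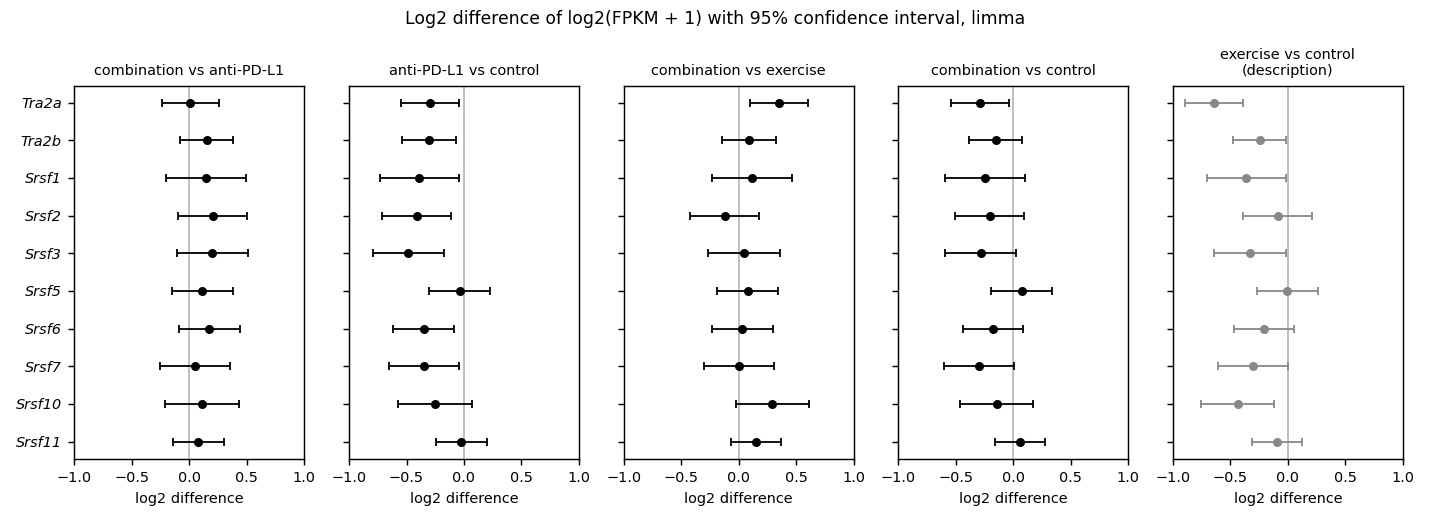
Log2 difference of each gene (points) with its 95% confidence interval (bars) from limma in 5 comparisons, the last given as a description because Tra2a was noted on it. Antibody against control runs from -0.49 for Srsf3 to -0.02 for Srsf11, and combination against anti-PD-L1 from 0.01 for Tra2a to 0.20 for Srsf2.

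Of the 10 members 0 passed limma at an adjusted threshold of 0.05 in any of the 4 tested comparisons. In anti-PD-L1 against control 0.253% of all tested genes passed, 0.16% higher and 0.0927% lower, and the share was 0% in each of the other 3. All 10 members had a log2 difference below 0 for the antibody alone, against 57.7% of tested genes, with a median of -0.33 beside -0.04. Of these, Srsf5 and Srsf11 were above 0 after quantile normalization or centring of the libraries. Members moved together within groups, with a median correlation of 0.66 with group means removed, so they do not count as independent results. At an unadjusted p under 0.05 in limma 7 of the 10 were lower and 0 higher, against 15.7% and 7.77% of tested genes. The groups did not overlap for 2 members, Tra2a and Srsf6, both lower, against 7.26% of tested genes, and 0 members were higher in this way, against 3.57%. The count of 7 was 3 without anti-PD-L1 library 3, 4 without anti-PD-L1 library 4, 3 without control 3 and 3 without controls 1 and 2, a pair chosen after seeing the data. The count of 2 was 5 without anti-PD-L1 library 1 and 5 without control 4, and 1 after quantile normalization. With a library left out, non-overlap is easier to reach for any gene. Shares over all tested genes were not computed for these refits, so the rise to 5 is not read as a result about the members.

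For exercise on top of antibody, 10 of 10 members had a fitted log2 difference above 0 in combination against anti-PD-L1, Tra2a only at 0.01 with mean levels of 39.2 and 39.3 FPKM. The median log2 difference was 0.13 beside 0.02 for all tested genes, of which 44.8% were below 0. The uniform sign was not particular to the members, since all 10 proliferation genes listed below were also above 0, with a median of 0.31. At an unadjusted p 0 members passed in limma, against 3.94% of tested genes, 2.25% higher and 1.69% lower, and 0 members had groups that did not overlap, against 1.4% higher and 0.843% lower. The signs here are not independent of those in anti-PD-L1 against control, which uses the same anti-PD-L1 libraries on the other side. In combination against exercise 1 member, Tra2a, was higher at an unadjusted p under 0.05 in limma and 0 were lower, against 6.7% and 6.93% of tested genes, 13.6% in all. There 2 members, Tra2a and Srsf10, were higher with no overlap and 0 lower, against 3.21% and 3.73%, and 1 member, Srsf2, had a log2 difference below 0, against 53.9%. Tra2a was selected for being low in these exercise libraries, so its place in these counts is a description and nothing is read from it. In combination against control 1 member, Tra2a, was lower at an unadjusted p under 0.05 in limma and 0 were higher, against 5.19% and 3.01% of tested genes, 8.2% in all. Of the members 8 were below 0, against 58.1%. There 3 members, Tra2a, Tra2b and Srsf3, were lower with no overlap and 0 higher, against 2.37% and 1.46%, and the count was 5 without control 4 or combination library 3. Shares over all tested genes were not computed for these refits, and leaving a library out makes non-overlap easier for any gene. The count of 3 was 1 after quantile normalization or centring. Tra2a was also selected on these controls, and its place in the counts against control is a description.

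In exercise against control, all 10 log2 differences were below 0, against 53.8% of tested genes, with a median of -0.27 beside -0.02. Srsf5, at -0.01, ranged from -0.11 to 0.09 when single libraries were left out. The libraries did not overlap for Tra2a, Tra2b, Srsf1 and Srsf10, against 3.51% of tested genes that were lower in this way, and 0 members were higher in this way, against 4.21%. Since the comparison chose Tra2a, nothing further is read from these counts. The difference between the effect of exercise with antibody and without it was above 0 for all 10 members, against 54.9% of tested genes. On the log2 scale it ran from 0.12 ± 0.18 for Srsf5 to 0.65 ± 0.17 for Tra2a, with a median of 0.39 beside 0.03 for all tested genes. It contains the same contrast and is given without a test.

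Within groups, most members were high or low in the same libraries. In anti-PD-L1 tumours libraries 1 and 2 had summed FPKM of 944 and 902 over the 10 members and libraries 3 and 4 had 719 and 737, with library 4 lowest of all 16 for 5 members. Exercise library 1 was the highest of its group for 9 of 10 members, with a sum of 973 against 750, 809 and 908 in the other exercise libraries. Control sums were 958, 988, 1064 and 933. Across the 16 libraries the Pearson correlation between pairs of members had a median of 0.64 over 45 pairs, and 0.66 with group means removed. Srsf11 stood apart, with correlations from -0.26 with Srsf6 to 0.35 with Srsf10. These values describe libraries that share groups and scaling, and carry no p.

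**Figure D4:**
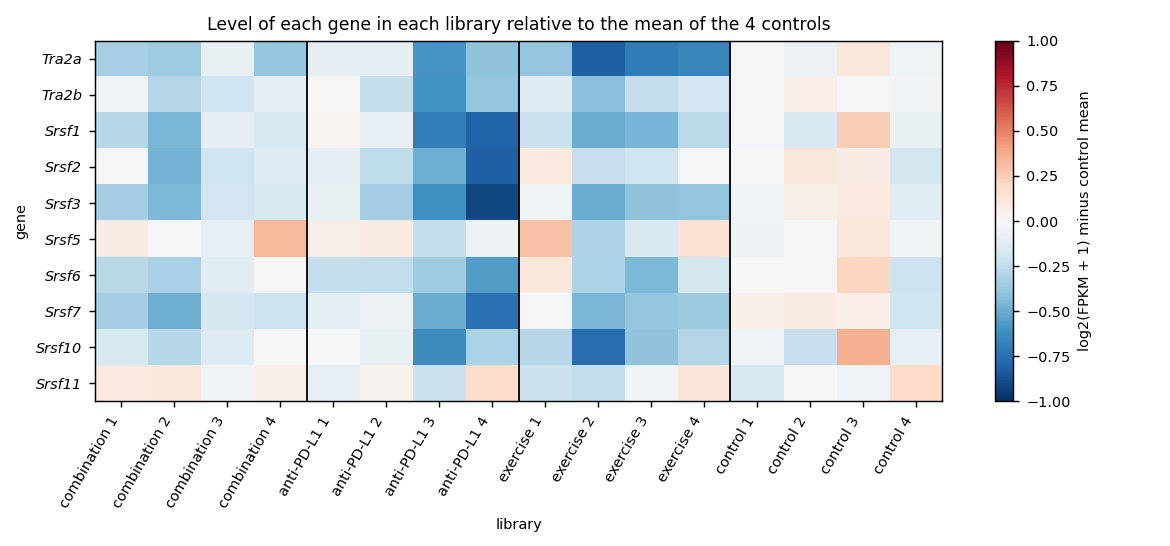
Log2(FPKM + 1) of each gene (rows) in each library (columns) minus the mean of the 4 controls, blue for lower and red for higher. Several libraries are lower for most genes, among them anti-PD-L1 libraries 3 and 4, exercise libraries 2 and 3 and combination library 2. The rows of Srsf5 and Srsf11 remain near the control level in most libraries.

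Outside the set, the genes most like Tra2a by Pearson correlation of log2(FPKM + 1) over the 16 libraries were Uba3, a subunit of the NEDD8 activating enzyme, at 0.93, Trnt1, which adds CCA to tRNA ends, at 0.93, Riok2, a kinase of ribosome assembly, at 0.93, Pnpt1, a mitochondrial RNA nuclease, at 0.92, and the entry named 217615 at 0.92. With group means removed, the values were 0.86, 0.91, 0.91, 0.85 and 0.74. By median correlation with the 10 members the most alike were Gspt1, a translation termination factor, at 0.82, Orc2, of the origin recognition complex, at 0.82, Ranbp1 at 0.81, Mrpl50 at 0.81 and 6720489N17Rik at 0.80.

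Of the other SR proteins, 2 of 3 were tested and 0 passed in limma in any tested comparison, with 0 at an unadjusted p under 0.05. Srsf4 averaged 65.4 ± 3.82 FPKM in combination, 60.01 ± 2.49 in anti-PD-L1, 67.7 ± 5.36 in exercise and 67.2 ± 5.78 in control tumours (SD, n = 4 each). Srsf9 averaged 31.7 ± 4.79 FPKM in combination, 27.7 ± 5.35 in anti-PD-L1, 33.6 ± 1.40 in exercise and 33.7 ± 6.09 in control tumours. Exercise against control gave log2 differences of 0.01 ± 0.08 for Srsf4 and 0.01 ± 0.15 for Srsf9. Srsf12 had group means of 0.01 FPKM or less and was not tested.

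Of the kinases and the import receptor of SR proteins, 10 of 11 were tested and 0 passed in limma in any tested comparison, and few had an unadjusted p under 0.05. These were 2 lower for antibody alone, against 15.7% of all tested genes, and 1 higher in combination against anti-PD-L1, against 2.25%. In combination against exercise 2 were lower, against 6.93%, and in combination against control 1 was higher, against 3.01%. Tnpo3, the importin that carries SR proteins into the nucleus, averaged 33.4 ± 4.81 FPKM in combination, 29.25 ± 3.48 in anti-PD-L1, 29.4 ± 5.81 in exercise and 40.3 ± 3.11 in control tumours. Anti-PD-L1 against control gave -0.45 ± 0.13, with a limma adjusted p of 0.0841. Srpk1, the main cytoplasmic SR kinase, gave -0.28 ± 0.12 there, with a limma adjusted p of 0.177.

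Dyrk1b, a dual-specificity kinase, was highest in exercise tumours, at 6.22 ± 0.83 FPKM in combination, 5.89 ± 0.98 in anti-PD-L1, 8.75 ± 1.27 in exercise and 5.25 ± 0.67 in control tumours. Combination against exercise gave -0.43 ± 0.13, with a limma adjusted p of 0.213. The nuclear kinases Clk1, Clk2, Clk3 and Clk4 had log2 differences between -0.09 and 0.24 for antibody against control and between 0.01 and 0.26 for combination against anti-PD-L1. Clk2 had an unadjusted p of 0.0422 in combination against anti-PD-L1 and an adjusted p of 0.968 in limma. Srpk2, Prpf4b and Dyrk1a lay between -0.12 and 0.05 for antibody against control, and Srpk3 was near 0 FPKM and not tested.

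In the wider splicing machinery 0 genes passed in limma in any of the 4 tested comparisons. Of 23 hnRNP and PTB genes, which often oppose SR proteins, 21 were below 0 in anti-PD-L1 against control, with a median log2 difference of -0.20, against 57.7% of all tested genes below 0. At an unadjusted p under 0.05 in limma 12 were lower and 1 higher, against 15.7% and 7.77% of all tested genes. Hnrnpa2b1 averaged 250.1 ± 35.5 FPKM in combination, 209 ± 42.6 in anti-PD-L1, 246 ± 30.7 in exercise and 307 ± 39.9 in control tumours, with a log2 difference of -0.57 ± 0.15 for antibody alone and an adjusted p of 0.0762 in limma. Hnrnpr and Hnrnpll were at -0.34 ± 0.10 and -0.29 ± 0.08 there, with adjusted p of 0.0878 and 0.0915 in limma, and Hnrnpl and Hnrnpa0 at -0.24 ± 0.08 and -0.15 ± 0.10.

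Of 34 spliceosome core genes, 30 were below 0 for antibody alone, against 57.7% of all tested genes, with a median of -0.17. At an unadjusted p under 0.05 in limma 9 were lower, against 15.7% of all tested genes, and 0 higher, against 7.77%. Among them Snrpa, of the U1 particle, Eftud2, a U5 GTPase, and Sf3b3, of the U2 particle, were at -0.33 ± 0.10, -0.36 ± 0.11 and -0.41 ± 0.13, and Snrpb and Sf3b6 at -0.25 ± 0.11 and -0.18 ± 0.11. In combination against anti-PD-L1, 30 of the 34 were above 0 and 4 below, against 44.8% of all tested genes below 0. The median was 0.09 beside 0.02 for all tested genes. Both comparisons rest on the same anti-PD-L1 tumours, once on each side.

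SR-related coactivators and speckle proteins had a median of -0.16 over 18 genes for antibody alone, with 4 lower at an unadjusted p under 0.05 in limma, against 15.7% of all tested genes. U2af2, the large subunit of the factor that binds the polypyrimidine tract, was at -0.31 ± 0.09, Thrap3 at -0.23 ± 0.08, Acin1 at -0.22 ± 0.10, Rnps1 at -0.17 ± 0.08 and Snrnp70 at -0.16 ± 0.11. Nonsense-mediated decay factors, which degrade poison exon transcripts, had a median of -0.08 over 10 genes. Upf3b, a decay factor bound to exon junctions, averaged 21.9 ± 2.37 FPKM in combination, 18.0 ± 2.08 in anti-PD-L1, 15.4 ± 4.61 in exercise and 22.0 ± 1.52 in control tumours. Its log2 difference was 0.52 ± 0.16 in combination against exercise, with a limma adjusted p of 0.212. Smg8, Smg9 and Smg5 were at 0.13 ± 0.07, -0.20 ± 0.09 and -0.29 ± 0.12 for antibody alone.

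**Figure D5:**
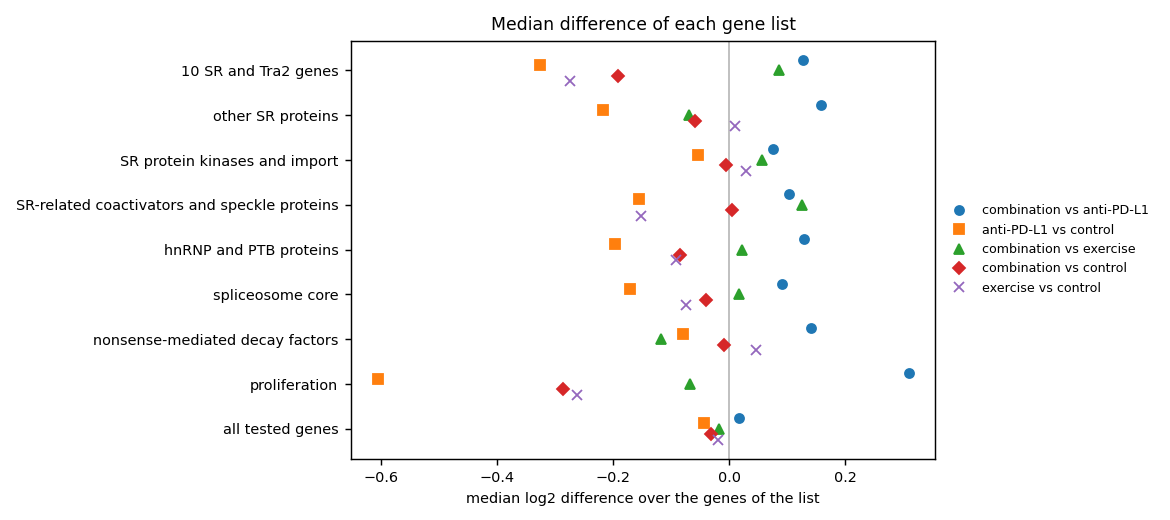
Median log2 difference (horizontal axis) over the genes of each list in 5 comparisons (symbols), with all tested genes in the bottom row. The 10 SR and Tra2 genes have a median of -0.33 for anti-PD-L1 against control, beside -0.61 for proliferation genes and -0.04 for all tested genes.

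Proliferation and other cell markers are given beside the members. All 10 proliferation genes were below 0 in anti-PD-L1 against control, with a median log2 difference of -0.61 and 10 lower at an unadjusted p under 0.05 in limma, against 15.7% of all tested genes, and 0 passed adjusted. Their summed FPKM ranged from 584 to 784 in combination, from 440 to 613 in anti-PD-L1, from 523 to 984 in exercise and from 623 to 963 in control libraries. The highest sum of all 16 was in exercise library 1 and the lowest in anti-PD-L1 library 4. In combination against anti-PD-L1 all 10 proliferation genes were above 0, with a median of 0.31. At an unadjusted p under 0.05 in limma 4 were higher there, against 2.25% of all tested genes, and 0 lower, against 1.69%. All 10 were below 0 in exercise against control and in combination against control, with medians of -0.26 and -0.29. In combination against exercise 6 were below 0 and 4 above. Macrophage markers summed to between 215 and 701 FPKM in combination, 169 and 415 in anti-PD-L1, 338 and 553 in exercise and 223 and 1064 in control libraries, highest in controls 1 and 2. Markers of T and NK cells, of which 4 of 10 were tested, summed to between 10.4 and 28.8 FPKM in combination, 16.8 and 46.6 in anti-PD-L1, 9.39 and 16.2 in exercise and 4.58 and 9.8 in control libraries. Red blood cell genes summed to 4071 FPKM in anti-PD-L1 library 4, where 5 members were at their lowest, and to between 68.8 and 792 in the other libraries. Skeletal muscle genes summed to 328 FPKM in control 2, which was the highest of 16 libraries for 3 members, and to between 1.95 and 12.9 in the others. Control 3, the highest of 16 libraries for 5 members, was at 2.2 FPKM for the muscle genes. Endothelial genes summed to 95.8 FPKM in control 2 and to between 19.5 and 52.0 in the others. Fibroblast genes summed to between 333 and 2016 FPKM, lowest in combination library 2 and highest in exercise library 2. Keratinocyte genes ranged from 9.95 to 86.2 FPKM and neutrophil genes from 3.47 to 32.9. The part of any of these in the levels of the splicing genes was not tested.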

How the data were processed

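The authors deposited FPKM, 1 table per library with 18480 entries. Per the submitters' processing notes, HISAT and Bowtie2 were used with GRCm38.p6. Which program computed FPKM, and whether strand was used, is not given in the sources used here. FPKM hold no counts, so no counting interval is given. Values were taken as log2(FPKM + 1), a scale that understates changes of low genes, for the 11868 entries that reached 1 FPKM in 4 or more libraries. One model in limma 3.58.1 (R 4.3.3, trend and robust settings) was fitted to all 16 libraries by group, with Benjamini-Hochberg adjustment over all tested entries in each contrast. It was also run on simulated data with independent noise for each gene and differences larger than those of the members. That run does not measure its power or error for the members. No libraries held identical values. The members, lists, motifs and tests were chosen with earlier results of these data known. All members, other SR proteins and SR kinases were named, with the 3 smallest p in combination against anti-PD-L1 and in anti-PD-L1 against control of each other splicing list, and the 5 genes most alike. Coordinates and promoters are from RefSeq. Alternatives were other scalings, filters and a pseudocount of 0.1, fits without trend and robust settings, with only the groups compared or with the replicate number as a block, and leaving out single libraries. A fit without controls 1 and 2 was chosen after seeing the data.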

Additional observations from a re-analysis of the deposited data

Results flagged for a closer look

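Among 48 sets of 4 libraries examined, each with the 10 members, their sum or the Tra2a to Tra2b ratio in 1 group, 3 held a library far from the other 3. Chance gives about 1 in 20. Tra2a was 45.39 FPKM in combination library 3, where the other combination libraries lay between 36.4 and 37.8. Tra2b was 84.81 FPKM in control 2, against 79.6 to 80.0 in the other controls. Srsf7 was 51.96 FPKM in control 4, against 62.1 to 63.6 in the other controls.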

How the results depend on the processing

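In each of 25 alternative fits 0 members passed in each of the 4 tested comparisons, with a lowest adjusted p of 0.0599 in limma for Srsf3 in anti-PD-L1 against control without control 4. Of 1000 recomputed member values in these comparisons 27 changed sign, in 11 results. The largest of these results was 0.11, for Srsf10 in combination against anti-PD-L1. Many of the 1000 values could not change. Fits that alter only the spread or the filter, or leave out a library of another group, return the same difference. The share that changed sign is therefore no measure of stability. For Tra2a in combination against anti-PD-L1 the value was -0.020 after quantile normalization, -0.0050 after centring, and between -0.089 and 0.075 when single libraries were left out. For antibody against control Srsf5 was at 0.012 and 0.0073 and Srsf11 at 0.011 and 0.023 under these scalings, and between -0.078 and 0.028 and between -0.088 and 0.042 with 1 library left out. Leaving out 1 library, ranges that crossed 0 were -0.11 to 0.094 for Srsf5 in exercise against control, and -0.083 to 0.14 for Srsf7 and -0.015 to 0.20 for Srsf10 in combination against anti-PD-L1. In combination against exercise they were -0.0082 to 0.14 for Srsf3, -0.020 to 0.18 for Srsf5, -0.049 to 0.14 for Srsf6 and -0.049 to 0.10 for Srsf7. In combination against control the range was -0.0097 to 0.13 for Srsf5, and without controls 1 and 2 Srsf11 was at -0.019. The Tra2a to Tra2b ratio of anti-PD-L1 minus control lay between -0.037 and 0.050 with 1 library left out and was -0.0498 without controls 1 and 2.

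Over all genes, anti-PD-L1 against control called 30, against 117 after quantile normalization, 77 after centring, 8 with no filter, 15 with the replicate number as a block, 4 without controls 1 and 2, and 6 to 768 with 1 library left out. Without exercise 1 it was 317, 108 higher and 209 lower, and without control 4 284 were higher and 484 lower. Combination against exercise called 0, against 2 after quantile normalization, 2 after centring, 2 with a mean of at least 5 FPKM, 1 with only the groups compared, 5 without controls 1 and 2, and 0 to 184 with 1 library left out, 184 being without exercise 1. The causes were not tested. Correlations of the deviations of same-numbered libraries ran from -0.62 to 0.34, and 6 of 24 exceeded 0.1, among them 3 of 4 between exercise and control. No pair of groups had all 4 above 0.1, so pairing was not assumed, and under the replicate block 0 members passed. The unknown depth limits the precision of each value.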
